A study of Mus musculus with 2 samples.

Results

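The genes described here are Mmp9 and Mmp14 of the matrix metalloproteases, Adam8, Adam9, Adam10, Adam15, Adam17 and Adam19 of the ADAM family, and the inhibitor gene Timp2. They were chosen by symbol from the deposited gene table. Of these 9 symbols, 8 were listed among its 18987 genes. Adam19 had no row and is not analysed here. All 8 passed the filter on low values, a mean of at least 1 CPM (counts relative to library size) over both libraries, which left 12086 genes.

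RNA sequencing had been carried out on RAW264.7 cells, a mouse macrophage-like line that turns into osteoclasts under RANKL, a cytokine of the TNF family. Cells carrying a control shRNA gave 1 library (the control library), and cells carrying an shRNA to Cpeb4, whose product binds polyadenylation elements in mRNA, gave the other (the knockdown library). Both cultures received 100 ng/ml RANKL 24 h after seeding at 7500 cells per cm2, and per the series title the cells were taken on day 3. No clones, parallel cultures or unstimulated cells are named, so each group is 1 library, no test was possible, and every difference below lies between these 2 libraries. The question addressed is how transcript levels differ when Cpeb4 is targeted during osteoclast formation.

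Matrix metalloproteases are zinc-dependent enzymes that cut collagens, gelatin and other matrix proteins. MMP9 is a secreted gelatinase made in large amounts by osteoclasts. MMP14 stays anchored in the membrane, where it degrades matrix at the cell surface and, with TIMP2 as a bridge, activates MMP2. ADAM proteases are membrane-bound relatives with a disintegrin domain, and several of them release the outer part of cell-surface proteins, a step called shedding. TIMP2 blocks the active site of many matrix metalloproteases.

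The libraries held 79399680 counts (control) and 119350322 counts (knockdown). Counts were scaled by TMM, and a log2 ratio is that of knockdown over control in CPM with a 95% exact counting interval, which covers counting error only. The targeted gene Cpeb4 had 25270 and 13491 counts (log2 ratio -1.73). Osteoclast markers were expressed in the control library and mostly lower in the knockdown library. Of 10, 9 were at least 2-fold lower (11.8% of all genes past the filter). The 10 had a median log2 ratio of -2.14 and summed levels of 49814 and 11299 CPM. Mmp9 is 1 of these 10, and the part of this list, and of the depth gap, in the differences below was not tested. Of 10 macrophage markers 9 were listed and 6 passed the filter, with a median of -0.41. Of these 6, 1, Cd68 (-1.04), was at least 2-fold lower and 0 were at least 2-fold higher (14.6% of all genes past the filter). Csf1r was at -0.61, Itgam at -0.44 and Spi1 at -0.38, while Lyz2 (0.998, just within 2-fold) and Cd14 (0.35) were above 0. The defining marker Adgre1 was at 0.16 and 0.78 CPM and Fcgr1 at 1.20 and 0.15 CPM, both below the filter. Of 12 fibroblast and osteoblast markers 6 were listed, with 53 and 181 summed counts, and of 10 granulocyte markers 0 were listed. In bulk RNA, fewer cells of a type and less RNA per cell cannot be told apart.

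The 2 libraries differed in opposite directions within the family. Mmp9, Mmp14, Adam9 and Timp2 lay at least 2-fold lower in the knockdown library, and Adam8 at least 2-fold higher. Adam10 and Adam17 were higher by less than 2-fold, and Adam15 lay near 0 on the log2 scale. Thus 1 of 8 genes was at least 2-fold higher, where 14.6% of the 12086 genes were, and 4 of 8 were at least 2-fold lower, where 11.8% were. With scaling by total counts, 2 of 8 were higher (20.8% of all genes) and 2 lower (8.49%). With scaling to 20 reference genes 1 of 8 was higher (8.56%) and 4 lower (22.1%). Under TMM the reference genes themselves ranged from -1.96 (Tfrc) to 1.93 (Tubb5), with a median of 0.41. At a threshold of 1.5-fold 3 of the 8 genes were higher (26.4%) and 4 lower (22.1%). At 4-fold 1 of these 8 was higher (4.82%) and 2 lower (3.52%). Since the genes were picked with earlier results known, these counts describe them only.

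**Figure D1:**
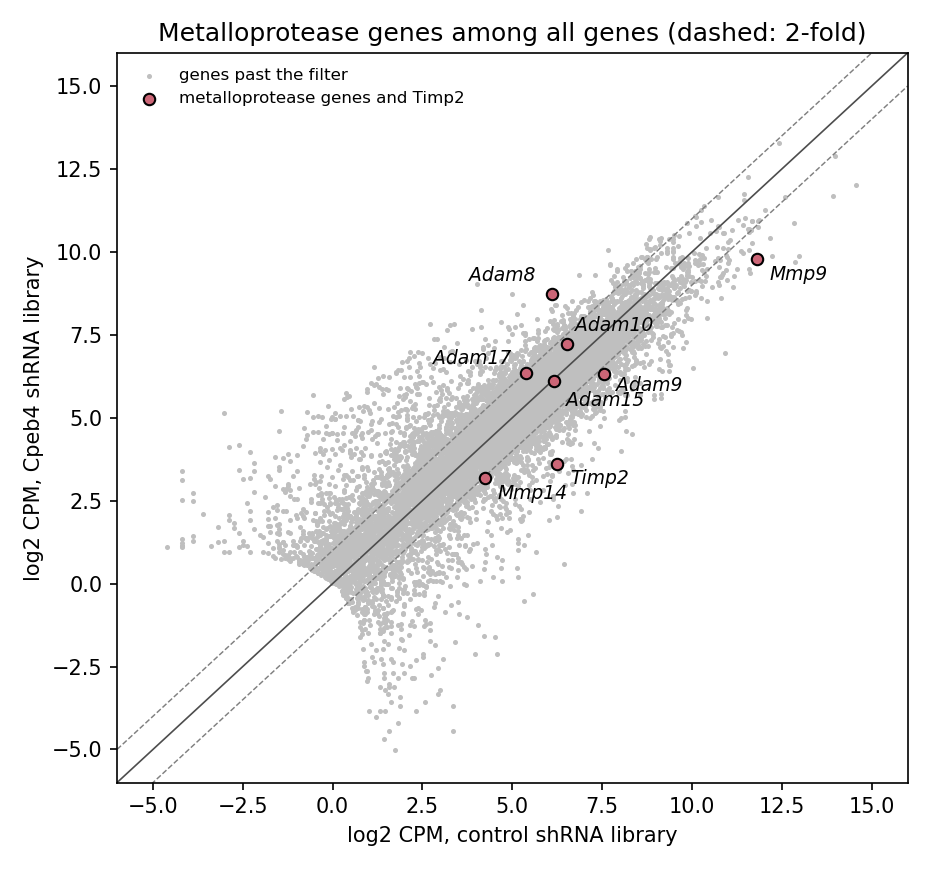
Log2 CPM in the control shRNA library (x axis) against the knockdown library (y axis) for the 12086 genes past the filter (grey) and the 8 listed metalloprotease and inhibitor genes (red). The solid line marks equal levels and the dashed lines 2-fold differences: Adam8 lies above the upper dashed line, and Mmp9, Timp2, Adam9 and Mmp14 below the lower one.

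Mmp9 dominated the counts in both libraries and was 4.07-fold lower in the knockdown library. The gene (ENSMUSG00000017737; mm10 chromosome 2, 164940780 to 164955850, plus strand) overlaps no other gene. It had 265601 counts in the control library, equal to 3627 CPM, against 115188 counts, equal to 890.2 CPM, after knockdown. The log2 ratio was -2.03 (interval -2.04 to -2.02), the 410th lowest of the 12086 genes. In CPM per kb of exonic length, Mmp9 was the 35th highest of 12070 genes with an annotated length in the control library and the 180th highest in the knockdown library. Mmp9 thus stayed among the abundant transcripts in both.

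Mmp14 was the least abundant of the 8 genes. It lies on chromosome 14, 54431612 to 54445364, plus strand (ENSMUSG00000000957), and overlaps no other gene. It had 1387 counts (18.9 CPM) in the control library and 1167 counts (9.02 CPM) in the knockdown library. The log2 ratio of -1.07 had an interval of -1.18 to -0.96, so at this depth the 2-fold line lay inside the interval. Under total-count scaling the ratio was -0.84, within 2-fold, and with 1 CPM added to each level it was -0.99.

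Timp2, the inhibitor, had the lowest ratio of the 8. The gene (ENSMUSG00000017466; chromosome 11, 118301069 to 118355740, minus strand) overlaps Cep295nl without sharing exonic bases. Its counts were 5600 in the control library and 1589 in the knockdown library, or 76.5 and 12.3 CPM. The log2 ratio was -2.64 (-2.72 to -2.56), a 6.23-fold lower level and the 230th lowest of all genes past the filter. The other TIMP gene listed, Timp1, had 38 and 26 counts, below the filter.

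Because the protease and its inhibitor were counted in the same library, their ratio does not depend on scaling. There were 47.4 Mmp9 counts per Timp2 count in the control library and 72.5 in the knockdown library, a 1.53-fold difference (log2 change 0.61, 95% counting interval 0.53 to 0.69). Mmp14 had 0.248 counts per Timp2 count in the control library and 0.734 in the knockdown library, a 2.97-fold difference (1.57, 1.43 to 1.71). Both protease transcripts were thus lower by less than Timp2 was. Mmp9 counts per Mmp14 count were 191 and 98.7, so the secreted gelatinase was lower by more than the membrane enzyme.

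**Figure D2:**
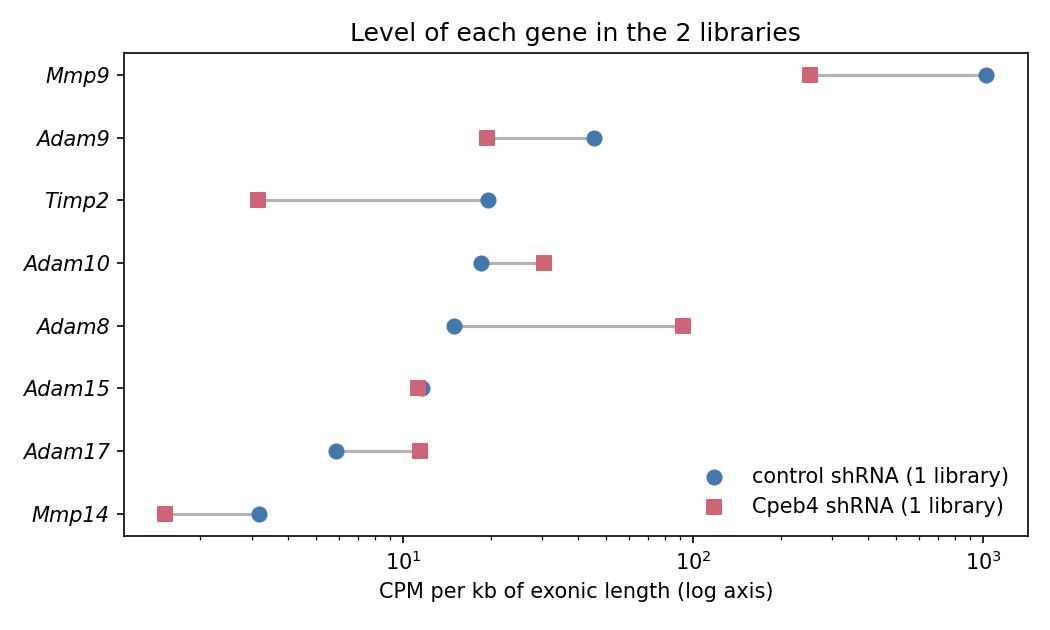
CPM per kb of exonic length (x axis, log scale) for each gene (y axis), with the control shRNA library as blue circles and the knockdown library as red squares, 1 library each. Mmp9 ranges from 1025 to 252 and Timp2 from 19.6 to 3.15, while Adam8 runs the other way, from 15.0 to 92.5.

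Adam8 had the highest ratio of the 8 genes. ADAM8 is a myeloid surface protease known from studies of leukocyte migration and of osteoclast formation. The gene (ENSMUSG00000025473; chromosome 7, 139978932 to 139992562, minus strand) had 5092 control counts (69.5 CPM) and 55491 knockdown counts (429 CPM). The log2 ratio was 2.62 (2.58 to 2.67), a 6.17-fold higher level and the 376th highest of the 12086. The antisense transcript Gm16201 shares exonic bases with it and had 84 and 1546 counts (log2 ratio 3.38). No source used here says whether counting used strand, so reads of the pair cannot be told apart, but the partner's counts were small beside those of Adam8.

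Adam9 was the most abundant ADAM transcript in the control library. ADAM9 is a widely expressed sheddase. The gene (ENSMUSG00000031555; chromosome 8, 24949611 to 25016927, minus strand) overlaps no other gene. Its counts were 13668 in the control library and 10337 in the knockdown library, or 187 and 79.9 CPM. The log2 ratio was -1.22 (-1.26 to -1.19), a 2.34-fold lower level, and under total-count scaling it was -0.99, just within 2-fold.

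Adam10 and Adam17 encode the main sheddases of many cells. ADAM10 makes the first ligand-induced cut in Notch receptors, and ADAM17 releases tumour necrosis factor from the membrane. Adam10 (ENSMUSG00000054693; chromosome 9, 70678997 to 70780229, plus strand) had 6676 and 19449 counts, or 91.2 CPM (control) and 150.3 CPM (knockdown). Its log2 ratio was 0.72 (0.68 to 0.76), a 1.65-fold higher level. Adam17 (ENSMUSG00000052593; chromosome 12, 21323509 to 21373632, minus strand) had 3074 and 10618 counts, or 42.0 and 82.1 CPM. Its log2 ratio of 0.97 (0.91 to 1.03) held the 2-fold line within its interval, and total-count scaling placed it at 1.20. Adam17 shares exonic bases with Iah1, on the other strand, which had 1413 and 3947 counts (0.66). Reads of this pair cannot be told apart either. There were 0.460 Adam17 counts per Adam10 count in the control library and 0.546 in the knockdown library. This was a 1.19-fold difference (log2 change 0.25, 95% counting interval 0.18 to 0.32).

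Adam15 differed least of the 8. ADAM15 is a membrane-bound member with an active protease domain. The gene (ENSMUSG00000028041; chromosome 3, 89338542 to 89349996, minus strand) had 5213 and 8959 counts, or 71.2 and 69.2 CPM. The log2 ratio was -0.04 (-0.09 to 0.01), and its sign depended on scaling, with 0.19 under total-count scaling and -0.45 under scaling to 20 reference genes. An antisense gene that shares exonic bases with it, 4731419I09Rik, had 41 and 108 counts.

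Among the 5 listed ADAM transcripts, Adam8 and Adam9 thus exchanged places. Per kb of exonic length, Adam9 made up 47.1% of the summed level of the 5 listed ADAM genes in the control library and Adam8 15.6%. In the knockdown library Adam8 made up 56.0% and Adam9 11.8%. Adam10 held 19.3% and 18.5%, Adam17 6.09% and 6.94%, and Adam15 12.0% and 6.82%. A share moves with the whole sum. The Adam15 share was thus lower in the knockdown library although its level was similar, at 71.2 and 69.2 CPM. The Adam10 share was similar although its level was 1.65-fold higher. Adam8 counts per Adam9 count were 0.373 in the control library and 5.37 in the knockdown library, a 14.4-fold difference that scaling does not alter (log2 change 3.85, 3.79 to 3.90).

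**Figure D3:**
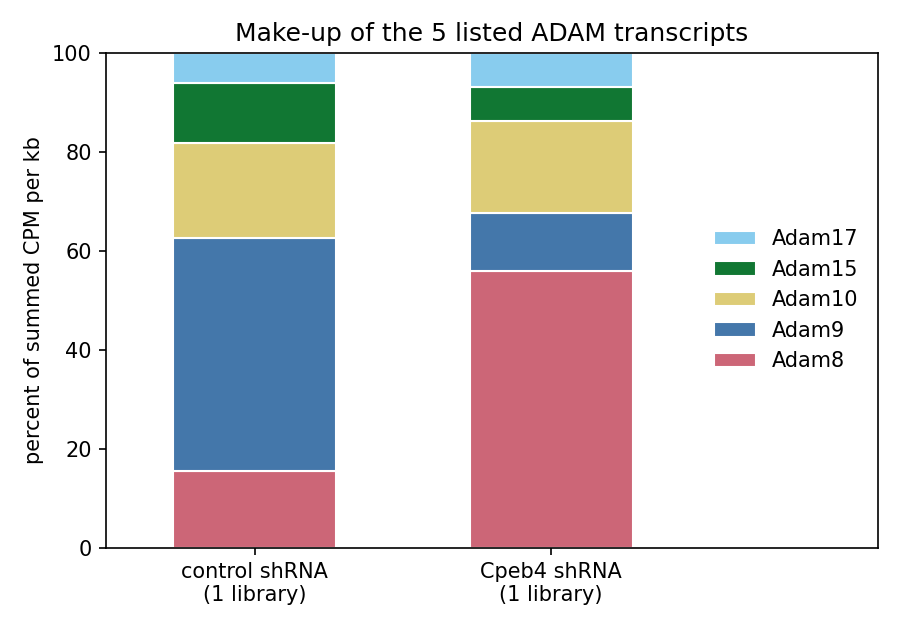
Share of each gene (y axis, percent) in the summed CPM per kb of the 5 listed ADAM genes, in both libraries (1 library per bar). Adam9 fills 47.1% of the control bar and 11.8% of the other, and Adam8 15.6% and 56.0%.

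In order of CPM per kb, the control library ran from Mmp9 (1025) and Adam9 (45.4) through Timp2 (19.6), Adam10 (18.6), Adam8 (15.0) and Adam15 (11.6) to Adam17 (5.87) and Mmp14 (3.18). With this length, the counting intervals of all neighbours in this order were apart. With the longest transcript as length, Timp2 (20.6), Adam10 (19.8), Adam8 (18.9) and Adam15 (18.2) lay closer together in the control library. Intervals were not computed for that length. In the knockdown library the order was Mmp9 (252), Adam8 (92.5), Adam10 (30.6), Adam9 (19.4), Adam17 (11.5), Adam15 (11.3), Timp2 (3.15) and Mmp14 (1.51). There the intervals of Adam17 (lower limit 11.3) and Adam15 (upper limit 11.5) overlapped, so at this depth their order was not resolved. Mmp9 was first and Mmp14 last in both libraries. Spread between cultures is unknown.

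Shares of all counts rest on the total count of each library, as total-count scaling does. Relative to TMM, this places the knockdown library higher by 0.23 on the log2 scale. The 8 genes together took 0.386% of the control library (exact binomial 95% interval 0.384% to 0.387%) and 0.187% of the knockdown library (0.186% to 0.187%). Most of this was Mmp9, at 0.335% and 0.0965%. Without Mmp9 the order of the libraries turned, with 0.0513% in the control library and 0.0902% in the knockdown library. Adam8 carried this turn, since the 6 genes left without Mmp9 and Adam8 took 0.0449% (0.0444% to 0.0453%) and 0.0437% (0.0433% to 0.0440%). The 5 ADAM genes alone took 0.0425% and 0.0879%.

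**Figure D4:**
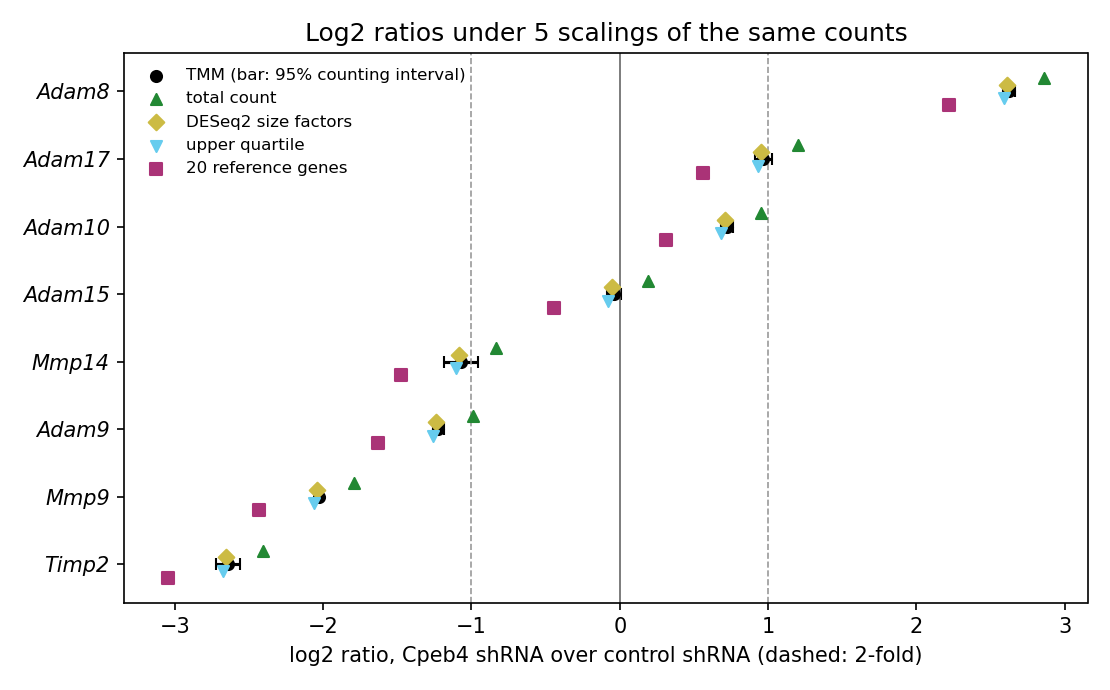
Log2 ratio of knockdown over control (x axis) for each gene (y axis) under 5 scalings, with the 95% counting interval drawn for TMM and dashed lines at 2-fold. Adam8 lies above 2-fold and Timp2 and Mmp9 below it under all 5 scalings, Adam9 and Mmp14 are within 2-fold under total-count scaling, and Adam15 lies on both sides of 0.

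CPEB proteins bind U-rich cytoplasmic polyadenylation elements in the 3′ UTR, usually near the poly(A) signal, and act on poly(A) tail length and translation. To show which of these transcripts carry such letters, TTTTAT and TTTTAAT were searched on the sense strand of 1 annotated 3′ UTR per gene (GENCODE M21, GRCm38). In the last 200 bases, 3 of the 8 genes held a match, Timp2, Adam8 and Adam10. Of 9219 genes past the filter with a 3′ UTR of at least that length, 30.3% held one (24.2% TTTTAT, 9.09% TTTTAAT), so the share among the 8 was near the background. The stretches below are in DNA letters, 5′ to 3′ on the transcript strand, with the matched letters in capitals. The Timp2 stretch holds 2 adjoining matches.
Timp2 (chr11:118301096-118301125, minus strand): gtctctacTTTTATTTTTATgagtttgctc
Adam8 (chr7:139978940-139978969, minus strand): agattctaTTTTATcaatagattatagatc
Adam10 (chr9:70780088-70780117, plus strand): ccactgtgTTTTATacagtatctttttttt

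The Timp2 match began 49 bases before the end of the 3′ UTR, that of Adam8 30 bases and that of Adam10 134 bases before it. Of these 3 genes, Timp2 had the lowest ratio of the 8, Adam8 the highest, and Adam10 was within 2-fold. Among all genes with such a window, 35.6% of those at least 2-fold higher held a match. The share was 26.1% of those lower and 30.1% of those within 2-fold. A relation of the letters to the ratios was not tested. Mmp9 held none in the last 200 bases of its 944-base 3′ UTR, but 2 farther upstream, shown because Mmp9 is the most abundant of the genes.
Mmp9, upstream match (chr2:164955204-164955233, plus strand): ttctgaccTTTTATttttgtgtggcgtctg
Mmp9, downstream match (chr2:164955294-164955323, plus strand): tccagcccTTTTATttattatgtatgaggt

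Over the whole 3′ UTR, Adam10 held 6 matches in 2135 bases, Adam17 3 in 1759 bases and Adam9 1 in 1306 bases. Adam15 (271 bases) and Mmp14 (593 bases) held 0. Close to the annotated end of the Mmp14 3′ UTR there were 0 poly(A) signals (AATAAA or ATTAAA). Each of the other genes had such a signal there, which limits the comparison for Mmp14. Matches per kb were 2.81 in Adam10, 2.12 in Mmp9, 1.83 in Adam8 and 0.76 in Timp2, beside a median of 0.81 over 10394 genes. A match is a run of letters, and binding was not measured.

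Most other matrix metalloprotease genes that were listed had low counts. Of 23 symbols 7 were listed. Every listed gene has at least 1 count in both libraries, so those without a row may have had counts in 1 library only. Of the 7, 3 passed the filter, and all 3 were at least 2-fold lower (11.8% of all genes). Their median was -1.56, beside 0.05 over all genes. The third, Mmp19, had 739 and 444 counts (log2 ratio -1.56, -1.73 to -1.38), and it shares exonic bases with Tmem198b and an antisense gene. Mmp2, which MMP14 activates, had 34 and 85 counts, and Mmp11, which shares exonic bases with Chchd10, had 38 and 45. Mmp15 had 10 and 4 counts, and Mmp23 had 13 and 52 (log2 ratio 1.18, 0.28 to 2.18). Mmp2 and Mmp23, both below the filter, thus had ratios above 0.

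Of 34 ADAM symbols 11 were listed and 7 passed the filter. Of these 7, 2 were at least 2-fold higher (14.6% of all genes) and 1 lower (11.8%). The median of the 7 was 0.72. Over all 11, without the filter, the median was -0.04, so its direction rests on the filter. Beside the 5 described, these were Adam3 and Adam1a. Adam3, known as a sperm protein gene, had 13 and 291 counts (log2 ratio 3.66, 2.87 to 4.59), shares exonic bases with Gm45528, and passed the filter only through the knockdown library. Adam1a had 89 and 143 counts (-0.14, -0.53 to 0.26). It shares exonic bases with Tmem116 and other protein-coding genes, and may share reads with its paralog Adam1b. Below the filter, Adam1b had 49 and 35 counts (-1.31) and Adam32 13 and 6 (-1.94).

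ADAMTS proteases are secreted relatives, several of which cut proteoglycans. Of 19 symbols 6 were listed and 5 passed (median -0.32). Of these 5, 2 were at least 2-fold lower (11.8% of all genes) and 0 higher (14.6%). Adamts14, a procollagen-processing protease gene, had 8.72 and 2.05 CPM (-2.09, -2.30 to -1.88). The other lower gene, Adamts4, had 930 and 360 counts (-2.19) and shares exonic bases with a gene on the other strand. Adamts10 was at 0.88, Adamts7 at 0.62 and Adamts13 at -0.32, while Adamts2, with 20 and 15 counts, was below the filter. Adamts7 shares exonic bases with Tbc1d2b. Among 11 metalloprotease inhibitor symbols 3 were listed, Timp2, Timp1 and Spock2. Timp1 was at -1.37 (-2.15 to -0.61), and Spock2 had 19 and 2 counts.

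Proprotein convertases remove the inhibitory prodomain of MMP14 and of several ADAMs. Of 9 symbols 4 were listed and passed, with a median of 0.36 (-0.05 under reference-gene scaling). Furin, the main enzyme of this kind, had 29180 control and 13180 knockdown counts (log2 ratio -1.97, -2.00 to -1.94). Pcsk4 had 80 and 600 counts (2.09). Mbtps1 and Pcsk7 were at 0.43 and 0.29.

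Escort proteins carry ADAM17 and ADAM10 to the cell surface. ADAM17 depends on iRhom proteins, and ADAM10 on tetraspanins of the TspanC8 group. All 9 symbols were listed and 7 passed the filter, with a median of -0.80. Of these 7, 3 were at least 2-fold lower (11.8% of all genes) and 0 higher (14.6%). The iRhom genes Rhbdf2 and Rhbdf1 were at -0.80 and 0.22, and Frmd8, which stabilises iRhoms, at -0.01. Of the tetraspanin genes Tspan10 was at -3.52 (521 and 80 counts, passing the filter only through the control library), Tspan17 at -1.64, Tspan14 at -1.30 and Tspan5 at -0.69. Tspan33 (71 and 50 counts) and Tspan15 (3 and 17 counts, ratio 1.68) were below the filter.

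Substrates known to be shed by ADAM10, ADAM17 or related proteases went both ways. Of 36 symbols 24 were listed and 22 passed, with a median of -0.58. Of these 22, 5 were at least 2-fold higher (14.6% of all genes), 6 lower (11.8%) and 11 within 2-fold. Higher were the receptor genes Axl (5.59, 16 and 1357 counts), Nrp1 (1.82) and Trem2 (1.76), the cytokine gene Tnf (1.92, 214 and 1434 counts) and the adhesion gene Icam1 (1.16). Axl passed the filter only through the knockdown library. Lower were the growth factor gene Hbegf (-2.84, 5084 and 1253 counts), the TNF receptor gene Tnfrsf1b (-2.63), Sdc1 (-1.53), Notch1 (-1.39), Notch4 (-1.36) and Aplp2 (-1.09), with Notch1 and Notch4 passing only through the control library. Notch2 had more counts than Notch1 or Notch4 (7866 in the control library and 20646 in the knockdown library) and was at 0.57, within 2-fold. The M-CSF receptor gene Csf1r was at -0.61 and the RANK gene Tnfrsf11a at -0.79.

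Genes for the delivery of MMP14 to podosomes, the actin-rich contacts where osteoclasts and macrophages degrade matrix, had a median of -0.46. Of 21 symbols all were listed and 19 passed. Of these 19, 5 were at least 2-fold lower (11.8% of all genes) and 0 higher (14.6%). Lower were the podosome scaffold gene Sh3pxd2a (-1.73), the membrane fusion gene Snap23 (-1.34), the kinase gene Src (-1.19), the motor gene Kif3b (-1.03) and the endosome gene Rab7 (-1.02). Highest were Snx27 (0.53), Kif3a (0.50) and Wasl (0.41). Cttn had 4 and 7 counts.

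Transcription factors known to act on Mmp9 were mostly within 2-fold, as were most of all genes past the filter (8900 of 12086). All 15 were listed and passed, 2 at least 2-fold higher, 1 lower and 12 within 2-fold, with a median of -0.05 (0.18 under total-count scaling). Fosl1 was at 3.82 from 10 and 250 counts, passing only through the knockdown library, Nfkb1 at 1.03, and Junb just within 2-fold. Ets1 was at -1.34 (120 and 84 counts, passing only through the control library), Jun at -0.83 and Jund at -0.70. Nfatc1, the osteoclast master regulator, was at -0.05 and Fos at 0.37.

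Other proteases of bone matrix were more often lower than higher. Of 14 symbols 10 were listed and 9 passed, with a median of -1.53. Of these 9, 5 were at least 2-fold lower (11.8% of all genes) and 1 higher (14.6%). Lower were the aminopeptidase gene Anpep (-4.37), the collagenolytic cathepsin gene Ctsk (-2.54), Ctsb (-1.79), Ctsd (-1.62) and Ctsz (-1.53). Ctss was higher (2.46), and Plaur, Ctsl and Plau were at -0.08, -0.56 and -0.64.

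**Figure D5:**
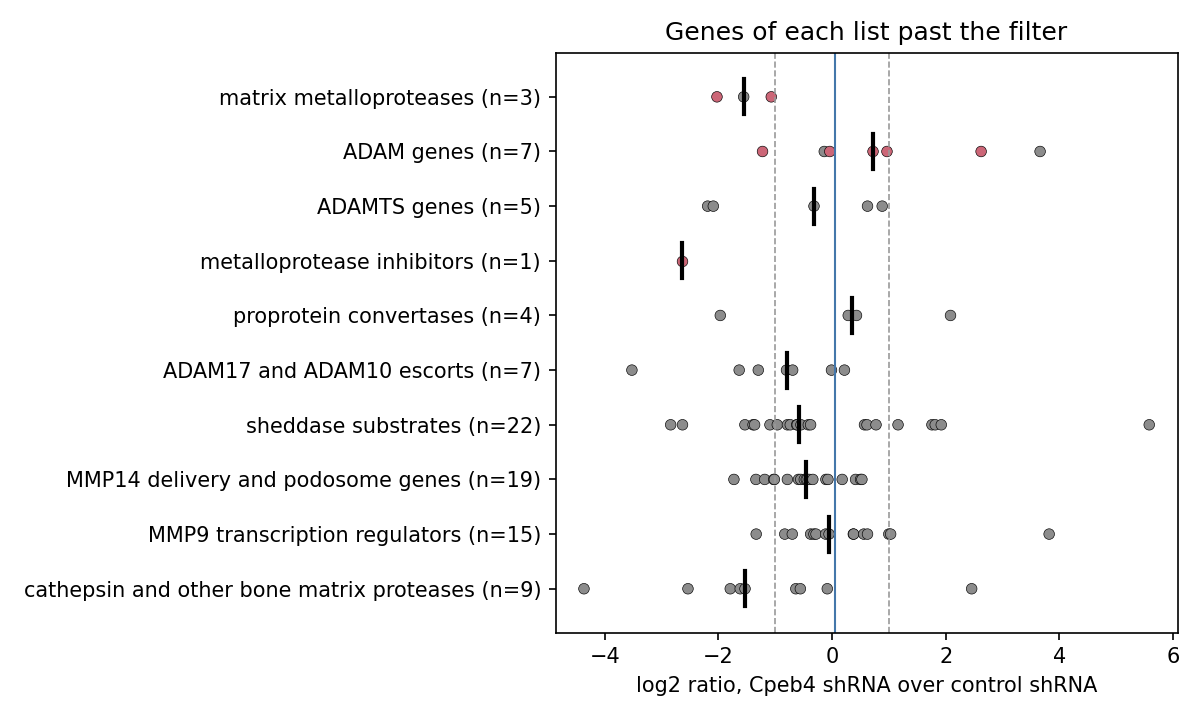
Log2 ratio of knockdown over control (x axis) of each gene past the filter in 10 gene lists (y axis, with the number of genes), with the 8 described genes in red, list medians as black bars, the median of all genes (0.05) as a blue line and 2-fold as dashed lines. The matrix metalloprotease median lies at -1.56 and that of bone matrix proteases at -1.53, while the ADAM median lies at 0.72 (-0.04 without the filter).

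By distance in log2 CPM over the 2 libraries, the genes nearest Adam8 were Nap1l1, a histone chaperone gene (4904 and 50642 counts, distance 0.14), the replication clamp gene Pcna (5498 and 43985 counts, 0.35) and S100a6 (5299 and 43307 counts, 0.36). Nearest Timp2 were Speg (5293 and 1474 counts, 0.14), Mras (5040 and 1550 counts, 0.16) and Tacc2 (4720 and 1635 counts, 0.25). With 2 libraries such likeness says only that the levels were close.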

How the data were processed

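The authors deposited raw gene counts, 1 column for each library. Alignment was by HISAT2 to mm10, per the submitters' processing notes. For the counting tool, annotation, strand setting and multi-mapped reads, no statement is given in the sources used here. Every listed gene has at least 1 count in both libraries. Genes at 4 counts outnumbered those at 3 or 5 (585 against 444 and 286 in the control library), so values may be estimates, which makes counting intervals approximate.

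Counts were scaled with TMM in edgeR 4.0.16 (R 4.3.3), with factors of 0.922 and 1.08. Genes averaging at least 1 CPM were kept. Ratio intervals are exact Clopper-Pearson, level intervals exact Poisson (both 95%), and those of a change in a within-library ratio use the normal approximation on the log scale. None covers variation between cultures. PCR copies are not independent molecules. Genes were called higher or lower at 2-fold. Coordinates and lengths (union of exons) come from GENCODE M21 for GRCm38, the assembly mm10 names, which held 18935 of the 18987 identifiers.

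The members, lists and tests were chosen with earlier results of these data known. Named genes were the members, family genes past the filter or at least 2-fold different with 10 or more counts in a library, in each other list the 3 highest, 3 lowest and all past 2-fold, and the 3 genes nearest the members with the highest and lowest ratio (predicted gene models left out). Some genes that the rule takes are left out of the text. For larger lists it gives those past 2-fold first. Alternatives were total-count, DESeq2 1.42.0, upper-quartile and reference-gene scaling, other filters and thresholds, a pseudocount of 1 CPM and transcript length. The ratio computation was tested on simulated counts.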

Additional observations from a re-analysis of the deposited data

How the results depend on the processing

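No paired analysis was possible because there is only 1 library on either side of the comparison. With total-count scaling 2 of the 8 genes were at least 2-fold higher (Adam8, Adam17) and 2 lower (Mmp9, Timp2). At 1.5-fold 3 were higher, and at 4-fold 2 were lower. Over all genes, 1035 were higher and 2671 lower with scaling to reference genes, 3217 and 2930 with no filter, 1025 and 907 at 10 CPM on average, 3191 and 2674 at 1.5-fold, and 582 and 426 at 4-fold, beside 1765 and 1421. With total-count scaling they were 2510 and 1027. Relative to TMM, log2 ratios shift by 0.23 with total counts and by -0.41 with reference genes, and the construction of scalings, filters and thresholds sets these changes. Over the 5 scalings 7 of 8 genes kept their sign, all but Adam15. The ranges were -2.43 to -1.79 for Mmp9, -3.04 to -2.41 for Timp2, 2.22 to 2.86 for Adam8, -1.48 to -0.84 for Mmp14, -1.63 to -0.99 for Adam9, 0.31 to 0.95 for Adam10 and 0.56 to 1.20 for Adam17. Within each library, the order of the 8 genes per kb did not change with the longest transcript as length (0 moved).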
